A study of Mus musculus with 4 samples.

Results

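The genes described here are 9 receptors, co-receptors and an adaptor through which airway cells sense microbes and allergens: Tlr1, Tlr2, Tlr3, Tlr4, Tlr5, Ly96, Cd14, Myd88 and F2rl1. They were chosen by symbol, and all 9 were found among the 25124 genes of the deposited table. The RNA came from airway epithelium, sorted by flow cytometry out of the lungs of wild-type C57BL/6 mice. The first group of 2 samples came from mice given an inhibitor of stearoyl-CoA desaturase 1 (SCD1), an enzyme that makes monounsaturated fatty acids, together with house dust mite (HDM). The second group of 2 samples came from mice given the vehicle dimethyl sulfoxide (DMSO) together with HDM. Both groups had thus received the allergen, and samples without it were not analysed here. The sources used here do not give the name and dose of the inhibitor, the age of the mice or the gate of the sort. Nothing in the labels says that the samples came from separate mice, so p-values measure the spread between these samples, which may be technical.

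Toll-like receptors (TLRs) recognise molecules made by microbes. TLR4 detects bacterial lipopolysaccharide, which CD14 hands over to a complex of TLR4 with MD-2, the product of Ly96, and a major house dust mite allergen resembles MD-2 in structure. TLR2 detects lipoproteins as a pair with TLR1 or TLR6, TLR5 detects flagellin, and TLR3 detects double-stranded RNA inside endosomes. All of these except TLR3 signal through the adaptor MyD88, while TLR3 uses the adaptor TRIF, encoded by Ticam1. F2rl1 encodes protease-activated receptor PAR2, which trypsin-like proteases, including those of house dust mite, switch on by cutting its extracellular end. In airway epithelium these receptors are known for triggering the release of cytokines that start allergic inflammation.

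The values are normalised reads, meaning a gene's reads over its library's size factor. Reads in genes came to 27013663 and 24591122 with the inhibitor, and 26766159 and 25908728 with DMSO. Across tested genes the log2 values correlated at r = 0.976 within the inhibitor pair, at r = 0.962 within the DMSO pair and at r = 0.961 to 0.967 between groups. Epithelial markers were high and even, with the 10 genes of that list summing to 114493 and 119581 normalised reads with the inhibitor and 120961 and 121460 with DMSO. Markers of alveolar type 2 cells, which lie outside the airways, were abundant beside those of ciliated and club cells. Of 13810 genes tested with limma, 188 were higher and 59 lower with the inhibitor at an adjusted p under 0.05.

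None of the genes that could be tested passed between the groups, and Tlr1 and Ly96 were too low to test. Of the 7 whose mean reached the floor of 25.8 normalised reads for testing, 4 had a positive and 3 a negative log2 fold change, their median was 0.00048, and that of all 13810 tested genes was 0.0056. No member passed at an adjusted p under 0.05, where 1.79% of all tested genes did, and none had an unadjusted p under 0.05, where 14.1% did. The smallest unadjusted p of a member was 0.0576, for Cd14. EdgeR, with an adjusted p for 8 members, and DESeq2, with one for 3, also called none and gave none an unadjusted p under 0.05. In 3 of the 7 the groups did not overlap, with Tlr3 and Tlr4 higher (22.7% of all tested genes) and Cd14 lower (22.2% of all tested genes), 44.9% in either direction.

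**Figure D1:**
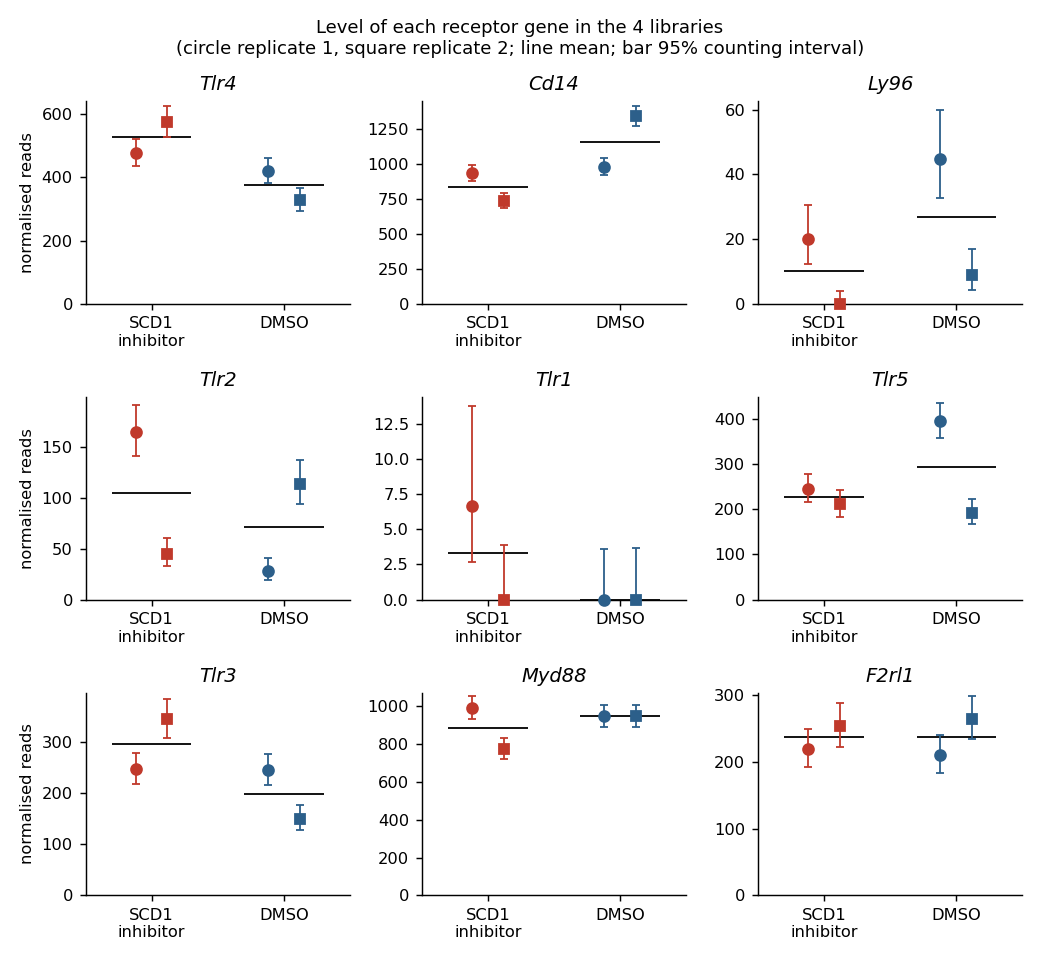
Normalised reads of the 9 genes in each library, with the SCD1 inhibitor in red and DMSO in blue, 1 panel per gene and each vertical axis starting at 0. Circles are replicate 1, squares replicate 2, horizontal lines group means and bars 95% Poisson intervals of the counting error alone. The groups are apart in the panels of Tlr4, Cd14 and Tlr3. In both groups the replicates of Tlr2, Ly96 and F2rl1 lie further from each other than the group means do.

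The lipopolysaccharide receptor complex was measured in unequal parts. Tlr4 (chromosome 4, 66827584 to 66930284, plus strand, mm10) had 479 and 576 normalised reads with the inhibitor, against 421 and 328 with DMSO. Both inhibitor libraries lay above both DMSO libraries, and the lowest value was that of DMSO replicate 2. The means were 527 ± 68.7 with the inhibitor and 375 ± 65.8 with DMSO (SD, n = 2 each). The log2 fold change was 0.47 ± 0.28 (SE), 1.39-fold, with a 95% interval from -0.14 to 1.08 and a limma adjusted p of 0.495.

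Cd14, the co-receptor that delivers lipopolysaccharide (chromosome 18, 36725067 to 36726798, minus strand), had 931 and 736 normalised reads with the inhibitor, against 975 and 1339 with DMSO. The groups did not overlap, but inhibitor replicate 1 and DMSO replicate 1 lay close together, with counting intervals of 873 to 991 and 915 to 1037. The means were 834 ± 137 with the inhibitor and 1157 ± 258 with DMSO (SD, n = 2 each). This gave a log2 fold change of -0.45 ± 0.22 (SE), the interval ran from -0.92 to 0.017, and the limma adjusted p was 0.380. It was -0.68 without DMSO replicate 1 and -0.23 without DMSO replicate 2. With a replicate block in the limma model the unadjusted p was 0.0325 and the adjusted p 0.244. The markers of alveolar type 2 cells, the surfactant-making cells, stood in the same order over the 4 libraries as Cd14. Their 10 genes summed to 329454 and 272781 normalised reads with the inhibitor and to 421757 and 478237 with DMSO, and 5 of the 10 fell. Alveolar type 1 markers had this order too, summing to 18049 and 17663.5 with the inhibitor and to 20252 and 20688 with DMSO. How many of all tested genes had this order was not counted. Macrophages also carry CD14, and the macrophage and monocyte list summed to 3509 and 2674 with the inhibitor and to 3504 and 5353 with DMSO, with Cd163 and Ms4a7 at 0 in all 4 libraries. Most of that sum was Lyz1, whose reads are hard to tell from those of its near-identical copy Lyz2. Without Lyz1 the sums were 1195 and 688 with the inhibitor and 611 and 1135 with DMSO. The part of these cells in the values of Cd14 was not tested. In bulk samples, fewer cells of a type and less RNA per cell cannot be told apart.

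Ly96, which encodes the MD-2 subunit that binds the ligand, was hardly detected. It had 20.1 and 0 normalised reads with the inhibitor, against 44.8 and 8.92 with DMSO, which correspond to 21, 0, 46 and 9 reads. Its mean of 18.5 lay below the floor, so it was not tested. The value of 0 in inhibitor replicate 2 allows up to 3.15 normalised reads, the value of 3 reads in that library. The DMSO replicates differed 5.03-fold between themselves.

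Tlr2 varied more between replicates than between groups. It had 164 and 45.1 normalised reads with the inhibitor, against 28.3 and 114 with DMSO. One library of each group was high and the other low, with a ratio of 3.64 within the inhibitor pair and 4.03 within the DMSO pair. The log2 fold change of 0.42 ± 0.63 (SE, adjusted p = 0.831) had the widest interval of the tested members, from -0.95 to 1.78. It was -0.29 without inhibitor replicate 1 and -0.27 without DMSO replicate 1, against 1.13 without inhibitor replicate 2 and 1.10 without DMSO replicate 2. The macrophage and monocyte sums without Lyz1, given above, had the same order over the libraries, and the sums with Lyz1 did not. The B cell sums had it too, with no gene left out, at 207 and 147 with the inhibitor and 84.8 and 191 with DMSO. T and NK cell sums were above 0 only in the libraries with high Tlr2, at 46.8 with the inhibitor and 32.7 with DMSO. Of the 15 macrophage and monocyte genes, 7 were below the floor. Of the 15, 5 were higher in both libraries with high Tlr2 than in either other library. Of the 10 markers of all leukocytes, 4 were, among them the pan-leukocyte gene Ptprc, with 241 and 69.2 normalised reads with the inhibitor and 48.7 and 181 with DMSO. The other 6 were not, such as Tyrobp, a signalling adaptor of myeloid cells, with 36.3 and 72.4 with the inhibitor and 46.8 and 46.6 with DMSO. The list summed to 3660 and 2087 with the inhibitor and 2838 and 3894 with DMSO, mostly through Lcp1, and without Lcp1 to 821 and 614 with the inhibitor and 514 and 1203 with DMSO. The libraries were split by the values of Tlr2 itself. How many of all tested genes had the same order was not counted, so both counts of markers are descriptions only. The part of leukocytes in the values of Tlr2 was not tested.

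The partners of TLR2 were at the limit of detection. Tlr1 had 6.69 normalised reads in inhibitor replicate 1, which were 7 reads, and 0 in inhibitor replicate 2 and in both DMSO libraries. Zero reads allow up to 3.15 normalised reads in that inhibitor library and up to 2.97 in a DMSO library. Tlr6 was at 0 in all 4 libraries. Tlr1 and Tlr6 are similar in sequence, and the sources used here do not say how reads matching both were assigned.

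Tlr5, the flagellin receptor, had 245 and 211 normalised reads with the inhibitor, against 395 and 192 with DMSO. DMSO replicate 1 was the high library, and the other DMSO library was the lowest of the 4. Its log2 fold change was -0.26 ± 0.39 (SE, limma adjusted p = 0.829), with -0.73 without DMSO replicate 2 and 0.21 without DMSO replicate 1. The DMSO replicates differed 2.05-fold and the inhibitor replicates 1.16-fold.

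Tlr3, the endosomal receptor for double-stranded RNA (chromosome 8, 45395665 to 45411080, minus strand), had 247 and 345 normalised reads with the inhibitor, against 246 and 151 with DMSO. The groups did not overlap, although replicate 1 of the inhibitor and replicate 1 of DMSO were nearly equal, at 259 and 252 reads. The means were 296 ± 69.0 with the inhibitor and 198 ± 67.2 with DMSO (SD, n = 2 each). With 0.54 ± 0.38 (SE), its log2 fold change was the furthest from 0 among the tested members, with an interval from -0.28 to 1.36 and an adjusted p of 0.580. The antisense gene Gm45542 overlaps 381 exonic bases of Tlr3 on the opposite strand. Without DMSO replicate 2, in which both Tlr3 and Tlr4 were lowest, the log2 fold change was 0.23 for Tlr3 and 0.30 for Tlr4. Without DMSO replicate 1 these values were 0.85 and 0.64. DMSO replicate 2 stood apart in other ways. Its 8 endothelial markers summed to 13236 normalised reads, against 4464 in DMSO replicate 1 and 4728 and 6422 with the inhibitor. Of 9 tested fibroblast and smooth muscle markers, all 9 had positive log2 fold changes, as Tlr3 and Tlr4 did. The median of these markers was 0.65, against 0.0056 for all tested genes, for which the share of positive values was not counted. Of the 9, 3 had an unadjusted limma p under 0.05, where 14.1% of all tested genes did, and none passed. The sum of that list was lowest in DMSO replicate 1 and highest in DMSO replicate 2, where Tlr3 and Tlr4 were lowest. The part of these cells in the values of Tlr3 and Tlr4 was not tested. Fos, an immediate early gene, had 6872 normalised reads in DMSO replicate 2, against 24972 in DMSO replicate 1 and 33440 and 26831 with the inhibitor.

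Myd88, the shared adaptor (chromosome 9, 119335934 to 119341411, minus strand), had 992 and 773 normalised reads with the inhibitor, against 945 in both DMSO libraries. The inhibitor libraries lay on either side of the DMSO value. Its log2 fold change was -0.11 ± 0.21 (SE, adjusted p = 0.871), and its interval of -0.55 to 0.34 was the narrowest of the tested members. On the opposite strand 290 exonic bases of Acaa1a overlap Myd88, and whether counting used strand is not given. Acaa1a had 3074 and 2492 normalised reads with the inhibitor and 3164 and 3066 with DMSO, so some Myd88 reads may be its own.

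Sequence before a RefSeq start is shown for 2 members, Myd88 as the shared adaptor and Tlr5 as the member whose RefSeq start had no annotated GENCODE transcript starting before it. Both are on GRCm38.p6 (mm10), written 5′ to 3′ on the gene's strand. Of the 3 annotated Myd88 transcripts, 2 start before the RefSeq start used, so its window lies inside the annotated gene, and the 23 bases next to that start, which are annotated as UTR, are left out. Of the windows of Tlr1, Tlr2 and Tlr3, 159 to 211 of 250 bases are annotated as UTR, and they are not shown. Capitals mark matches on either strand to the letters of an NF-kB core (GGG, 5 bases of any kind, CC), an interferon response element core (GAAA, 2 bases of any kind, GAAA) or an AP-1 site (TGANTCA).
Myd88, chr9:119340042-119340268, minus strand: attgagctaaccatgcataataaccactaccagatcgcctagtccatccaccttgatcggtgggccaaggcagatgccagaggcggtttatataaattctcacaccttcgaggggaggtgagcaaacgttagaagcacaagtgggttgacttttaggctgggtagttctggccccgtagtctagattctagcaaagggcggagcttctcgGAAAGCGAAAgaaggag
Tlr5, chr1:182954538-182954787, plus strand: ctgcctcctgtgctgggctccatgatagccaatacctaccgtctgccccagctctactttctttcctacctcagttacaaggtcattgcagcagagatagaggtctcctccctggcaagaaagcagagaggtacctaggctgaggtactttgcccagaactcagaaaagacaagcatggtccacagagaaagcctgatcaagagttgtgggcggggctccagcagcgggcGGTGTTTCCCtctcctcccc
Myd88 held 1 match to the interferon response element letters, which 2.98% of the 32851 promoter windows of 250 bases hold. Tlr5 held 1 match to the NF-kB letters, which 45.8% of windows hold. Neither held the AP-1 letters, which 6.75% of windows hold. The matches are letters and were not tested as binding sites.

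F2rl1, the gene of PAR2 (chromosome 13, 95511732 to 95525227, minus strand), had 219.8 and 254 normalised reads with the inhibitor, against 211 and 265 with DMSO. The inhibitor values lay between the DMSO values, and the means were 237 ± 24.1 with the inhibitor and 238 ± 38.2 with DMSO (SD, n = 2 each). Its log2 fold change was 0.00048 ± 0.36 (SE, limma adjusted p = 0.9997). Its interval ran from -0.77 to 0.77, so changes of up to 1.70-fold in either direction lay within the error.

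**Figure D2:**
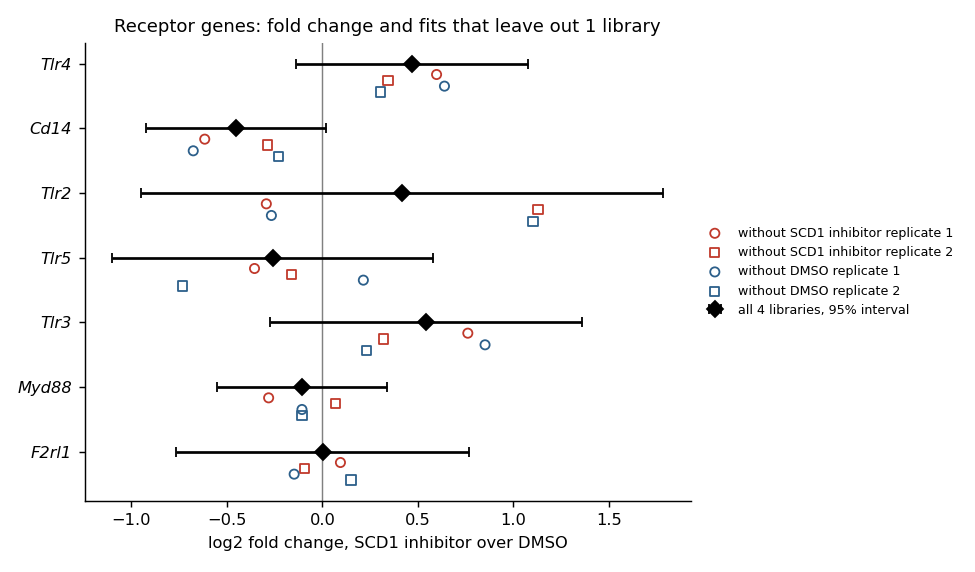
Log2 fold change of the SCD1 inhibitor over DMSO for the 7 tested genes. Diamonds and bars are the fit to all 4 libraries with its 95% interval, and open symbols are fits without 1 library (red, an inhibitor library left out; blue, a DMSO library left out). All 7 intervals span 0, the upper bound of Cd14 being 0.017. The open symbols of Tlr2, Tlr5, Myd88 and F2rl1 lie on both sides of 0.

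Per kb of the longest annotated transcript, Cd14 was the most abundant member, with a mean over the 4 libraries of 606 normalised reads per kb (range 449 to 816). Myd88 followed with 372 (315 to 404). The lowest library of Cd14 was above the highest of Myd88, and the lowest of Myd88 was above the highest of Tlr4, so on this length neither place rested on 1 library. Tlr4 had 111 normalised reads per kb, F2rl1 86.5, Tlr5 68.3, Tlr3 56.1, Tlr2 29.2, Ly96 27.7 and Tlr1 0.55. From Tlr4 downwards each gene overlapped the next over the 4 libraries, so this part of the order is uncertain. With the median instead of the longest annotated transcript, 5 of the 9 genes kept their place, and Tlr4 came to 359 and Tlr3 to 350 normalised reads per kb, beside 466 for Myd88 and 793 for Cd14. The median transcript is 707 bases for Tlr3 and 1256 for Tlr4, against longest ones of 4407 and 4077 bases. Myd88 then overlapped Tlr4, and in inhibitor replicate 2 it was the lower, at 394 against 459, while Cd14 stayed above Myd88 in all 4 libraries. By the longest transcript, Cd14 was above 76.3% of the tested genes with an annotated length, Myd88 above 63.6% and Tlr4 above 32.1%. Within a library, the level of Tlr4 per kb was 3.90 times that of Ly96 in inhibitor replicate 1, with Ly96 at 0 in inhibitor replicate 2, and 1.53 and 6.01 times with DMSO. With the median transcript the ratios were 12 in that inhibitor library and 4.73 and 18.5 with DMSO.

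**Figure D3:**
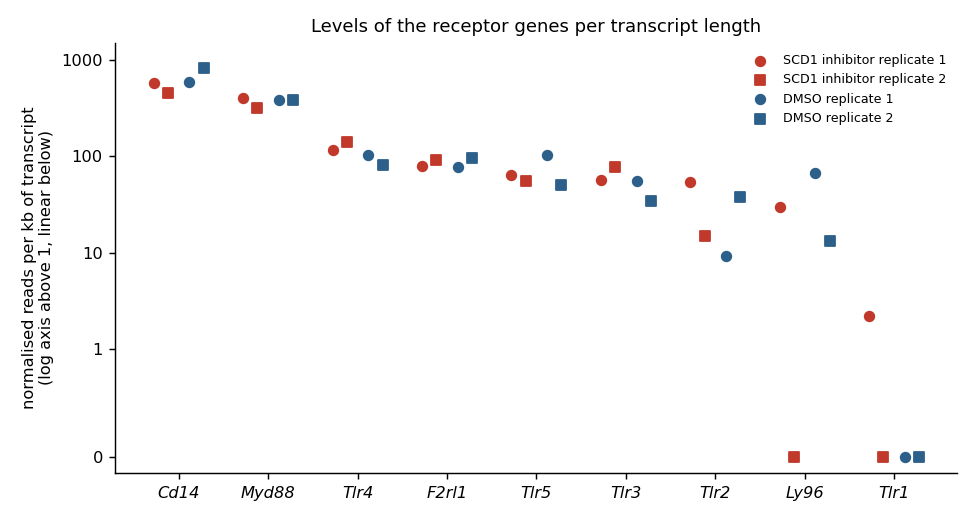
Normalised reads per kb of the longest annotated transcript for the 9 genes in each library, ordered by their mean, on an axis that is logarithmic above 1 and linear below. Red symbols are the SCD1 inhibitor and blue symbols DMSO, circles replicate 1 and squares replicate 2. On this length Cd14 and Myd88 stand above the receptors in every library, and zeros are seen for Ly96 in 1 library and for Tlr1 in 3.

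The genes around these receptors were taken from 10 lists, of which 155 genes were in the table and 113 reached the floor. Of the 113, 1 was higher and 1 lower with the inhibitor in the test over all genes, against 1.36% and 0.427% of all tested genes. Their median log2 fold change was -0.016. The groups did not overlap in 42.5% of them, against 44.9% of all tested genes.

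The gene that rose was Hsp90b1, which encodes the endoplasmic reticulum chaperone GRP94 that several, but not all, Toll-like receptors need to fold. It had 26032 and 29235 normalised reads with the inhibitor, against 19415 and 17444 with DMSO. The groups did not overlap, and the log2 fold change was 0.58 ± 0.11 (SE; limma adjusted p = 0.0203). GRP94 also folds other secreted proteins, and the call ended without either inhibitor library (adjusted p = 0.198 without replicate 1 and 0.512 without replicate 2), without the floor (0.0801), without limma's intensity trend (0.455) and with edgeR (0.103). The other 8 tested genes for trafficking and ligand delivery did not pass, and the list median was -0.14. Lrrc59, which takes part in moving TLR3 and other endosomal receptors, had 1986 and 2452 normalised reads with the inhibitor, against 3593 and 3055 with DMSO (log2 fold change -0.58, adjusted p = 0.0757). It passed with DESeq2 (adjusted p = 0.0249) and without DMSO replicate 2 (0.0250). The log2 fold change of Unc93b1, which escorts the endosomal receptors, was -0.21 (adjusted p = 0.580), and that of Lbp, the secreted lipopolysaccharide binding protein, was -0.12 (adjusted p = 0.767).

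The gene that fell was Itpr3, an inositol trisphosphate receptor that releases calcium from the endoplasmic reticulum downstream of Gq-coupled receptors, PAR2 among them. It had 2060 and 1575 normalised reads with the inhibitor, against 3390 and 2736 with DMSO, a log2 fold change of -0.75 ± 0.17 (SE), 1.68-fold (adjusted p = 0.0413). The groups did not overlap. The call ended without inhibitor replicate 1 (adjusted p = 0.217), without inhibitor replicate 2 (0.731), with a pseudocount of 1 (0.0624), without the floor (0.0998), without the intensity trend (0.457) and with edgeR (0.151). In the list of protease-activated receptors and effectors, which is mostly G proteins, arrestins, kinases, phospholipases and calcium channels, 12 of 15 tested genes had negative log2 fold changes. The median was -0.16, against 0.0056 for all tested genes, for which the share of negative values was not counted. Plcb4, a phospholipase that makes inositol trisphosphate, had 906 and 1047 normalised reads with the inhibitor and 746 and 469 with DMSO (log2 fold change 0.69, adjusted p = 0.217), and passed without DMSO replicate 1 (adjusted p = 0.0177). The related receptor gene F2rl2 was at 0 in all 4 libraries. Of the 14 tested epithelial trypsin-like proteases and protease inhibitors none passed, and the median was -0.11. For St14, the membrane protease matriptase, the log2 fold change was -0.27 (adjusted p = 0.294), and for Cst3, the secreted inhibitor cystatin C, it was -0.29 (adjusted p = 0.336).

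None of the 20 tested adaptors and kinases passed, with 10 positive and 10 negative log2 fold changes and a median of 0.036. The 2 of smallest p were Tab1, a binding partner of the kinase TAK1 (log2 fold change -0.45, adjusted p = 0.329), and the ubiquitin ligase gene Traf6 (0.41, adjusted p = 0.406). Ticam1, the adaptor of TLR3, had 502 and 468 normalised reads with the inhibitor, against 672 and 689 with DMSO (log2 fold change -0.47, adjusted p = 0.413). Its values thus lay lower with the inhibitor where those of Tlr3 lay higher, and neither passed. Ticam2, which bridges TLR4 to Ticam1, lay below the floor, with 29.6 and 19.9 normalised reads with the inhibitor and 0 and 18.8 with DMSO.

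None of the 14 tested brakes on the pathway passed (median 0.15), the 2 of smallest p being the deubiquitinase genes Usp25 (log2 fold change 0.43, adjusted p = 0.275) and Cyld (0.41, adjusted p = 0.324). The 12 transcription factors had the highest median of the lists, 0.29, and none passed. For Fos the log2 fold change was 1.19 ± 0.38 (SE, adjusted p = 0.161), and Nfkbiz, a nuclear partner of NF-kB, 0.77 (adjusted p = 0.288). Both had their lowest value in DMSO replicate 2 and passed without DMSO replicate 1 (log2 fold change 2.12 and 1.32, adjusted p = 1.45e-08 and 0.00499). The 9 tested target genes of NF-kB had a median of -0.16, and none passed. Cxcl5, a neutrophil chemokine, had 26.8 and 0 normalised reads with the inhibitor and 54.6 and 52.5 with DMSO (log2 fold change -1.11, adjusted p = 0.490), and for Lcn2, an iron-sequestering defence protein, it was -0.23 (adjusted p = 0.706). The cytokine genes Il6 and Tnf were at or near 0, with 2 normalised reads or fewer in each library.

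In the list of other pattern receptors, which also holds adaptors, kinases and caspases, none of the 13 tested genes passed and the median was 0.0045. Ifih1, a cytosolic RNA sensor, had 788 and 827 normalised reads with the inhibitor and 726 and 349 with DMSO (log2 fold change 0.65, adjusted p = 0.354), and passed without DMSO replicate 1 (adjusted p = 0.0152). Clec7a, the beta-glucan receptor dectin-1, had 146 and 105 with the inhibitor and 0 and 158 with DMSO (log2 fold change 1.12, adjusted p = 0.552). Without DMSO replicate 2 this was 2.54 and passed (adjusted p = 0.0376), and without DMSO replicate 1 it was -0.29. The 9 remaining Toll-like receptors and homologues were all below the floor and summed to 73.6 and 71.3 normalised reads with the inhibitor and to 63.4 and 44.6 with DMSO. Of receptors that share Myd88, Il18r1, a subunit of the interleukin 18 receptor, had 7537 and 7336 normalised reads with the inhibitor and 5875 and 4539 with DMSO (log2 fold change 0.52, adjusted p = 0.0677). It passed without DMSO replicate 1 (0.71, adjusted p = 0.000768) and with DESeq2 (adjusted p = 0.00808). For Il1rl2, the interleukin 36 receptor, the log2 fold change was 0.53 (limma adjusted p = 0.323), and 0.84 without DMSO replicate 1. This list also holds Il18, Il33 and Il1rn, which are secreted proteins and not receptors, and the median of its 7 tested genes was 0.16.

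**Figure D4:**
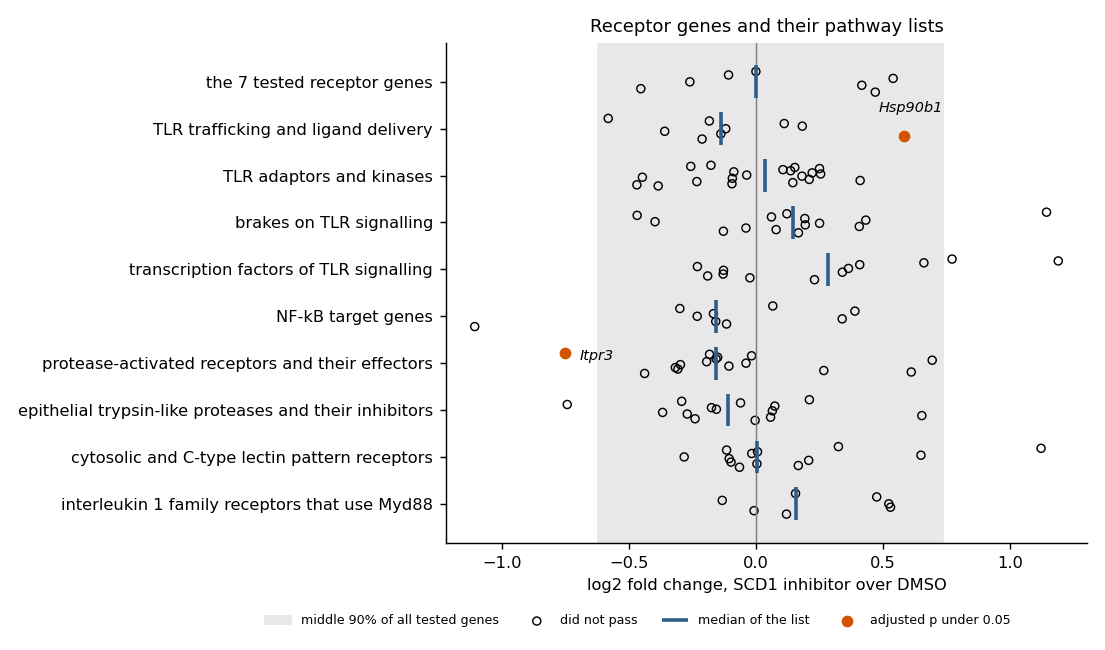
Log2 fold changes of the SCD1 inhibitor over DMSO for the 7 tested receptor genes (top) and the tested genes of 9 pathway lists, with 1 circle per gene and a blue line at each list's median. Filled circles passed at an adjusted p under 0.05, and the grey band spans the 5th to the 95th percentile of all 13810 tested genes, -0.62 to 0.74. All 7 receptor genes lie within the band, and Hsp90b1 and Itpr3 are the filled circles.

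Markers of other cell types differed widely in level. The 10 neutrophil markers summed to 143 and 150.0 normalised reads with the inhibitor and to 135 and 114 with DMSO, with S100a8, S100a9, Ly6g, Mmp8, Camp and Ngp at 0 in all 4 libraries. The 10 eosinophil and mast cell markers summed to 49.7 and 64.0 with the inhibitor and to 53.6 and 111 with DMSO, and the 8 T and NK cell markers in the table to 46.8 and 0 with the inhibitor and to 0 and 32.7 with DMSO. Dendritic cell markers summed to 476 and 384 with the inhibitor and to 305 and 496 with DMSO, and B cell markers to 207 and 147 with the inhibitor and to 84.8 and 191 with DMSO. Fibroblast and smooth muscle markers summed to 6054 and 5236 with the inhibitor and to 2590 and 6153 with DMSO. Among epithelial lists, goblet cell markers stood lower, summing to 19177 and 37202 with the inhibitor and to 106774 and 81181 with DMSO, and 7 of 10 fell, among them Clca1 (log2 fold change -1.88, adjusted p = 0.00163) and Fcgbp (-1.90, adjusted p = 5.75e-05). In the alveolar type 2 list 5 of 10 genes fell, and the median log2 fold change was -0.54. Among the 5 were the surfactant genes Sftpc (-0.65, limma adjusted p = 0.0345) and Abca3 (-0.52, adjusted p = 0.0248) and the lysozyme gene Lyz2 (-0.62, adjusted p = 0.0205). In the club cell list 3 of 7 fell (median -0.58), among them Scgb3a2 (-1.15, adjusted p = 0.000365) and Cyp2f2 (-0.65, adjusted p = 0.0345). In the alveolar type 1 list 1 of 7 tested genes fell, Aqp5 (-0.85, adjusted p = 0.0203). Of those 7, 2 had positive values, and the median was -0.22. In the ciliated cell list 1 of 10 rose, Ccdc39 (1.42, adjusted p = 0.00140), 3 had negative values and the median was 0.16. That list summed to 526413 and 546244 with the inhibitor and to 517186 and 535054 with DMSO. Without either inhibitor library and with edgeR the calls of Sftpc, Abca3, Lyz2, Cyp2f2, Aqp5 and Ccdc39 ended, with edgeR that of Clca1 also (adjusted p = 0.0714), and without the intensity trend those of all 9 marker genes named here. Without the floor Sftpc, Abca3, Lyz2, Cyp2f2 and Aqp5 did not pass (adjusted p = 0.0539 to 0.173), nor did Sftpc with upper-quartile scaling (0.0547) or without DMSO replicate 2 (0.0751). Basal cell markers summed to 943 and 3121 with the inhibitor and to 5245 and 3986 with DMSO, with none of 6 tested genes passing. Which of these cells carried the transcripts of the 9 genes was not tested.

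**Figure D5:**
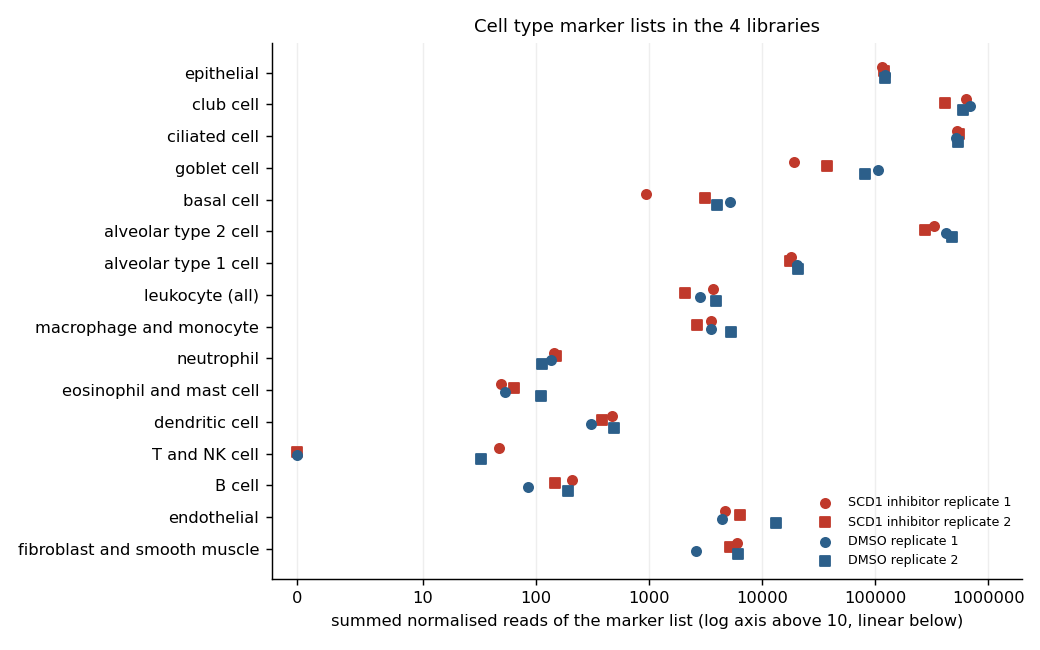
Summed normalised reads of each cell type marker list in the 4 libraries, on an axis that is logarithmic above 10 and linear below. Red symbols are the SCD1 inhibitor and blue symbols DMSO, circles replicate 1 and squares replicate 2. The epithelial, club, ciliated and alveolar type 2 lists lie at the top, none under 114493, and of the leukocyte lists the highest sum is 5353, in DMSO replicate 2.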

How the data were processed

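Total RNA of sorted cells was made into strand-preserving libraries, per the labels' protocols. The deposited values are a signal per gene, read counts divided by 1 size factor per library, as read from the values: in each library 100% of values were multiples of 1 step, to within 0.01, and that step was the inverse of the library's median-of-ratios size factor. For DMSO replicate 2 the step (0.991) is close to 1, so its unit rests on the other evidence. HOMER, DESeq2 and mm10 appear in the submitters' processing notes without versions. The sources used here name neither the aligner nor any use of strand in counting.

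Values were tested as log2(value + 25.8), 25.8 being 1 CPM at the mean library total, for genes with a mean of at least 25.8. Folds on this scale are smaller for low genes. The model had group as its term and an intensity trend (limma 3.58.1, R 4.3.3; prior degrees of freedom 11.2), with Benjamini-Hochberg adjustment and a threshold of 0.05 over all tested genes. Recovered whole reads were used for edgeR 4.0.16, DESeq2 1.42.0 and Poisson intervals, which, like the limit of 3 reads for a count of 0, cover counting error only. At the floor the counting error of 1 library is 19.7%. Coordinates and lengths are from GENCODE M21 (GRCm38), and promoters from RefSeq (5 of 9 members matched). The script was tested on simulated counts. Figures were made with matplotlib 3.10.9 in Python 3.11.15.

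Named genes were the members and, from each pathway list, genes that passed and otherwise the 2 of smallest p. The rule also covered each marker list's most abundant gene and up to 2 that passed, most of which stand in the sums. Unc93b1, Lbp, Ticam1, Ticam2, Tlr6, F2rl2, Il6, Tnf, Ptprc and Tyrobp were named after their values were seen, as were the sums without Lyz1 and Lcp1 and the count of markers in the order of Tlr2. The members and lists were chosen with earlier results of these data known. Alternatives were a replicate block, other pseudocounts, floors and scalings, no intensity trend, edgeR, DESeq2, each library left out and another transcript length.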

Additional observations from a re-analysis of the deposited data

How the results depend on the processing

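No member was called under any of the 15 alternatives. Tlr4, Tlr3 and Cd14 kept their direction in each alternative that gave them a value. F2rl1, whose value was 0.00048, was -0.00044 with 4 times the pseudocount, -0.0092 with TMM, -0.017 with upper-quartile scaling and with edgeR, -0.0047 with DESeq2, -0.093 without inhibitor replicate 2 and -0.15 without DMSO replicate 1. Tlr2 was -0.29 without inhibitor replicate 1 and -0.27 without DMSO replicate 1 (range up to 1.13), Tlr5 0.21 without DMSO replicate 1 (range from -0.73), and Myd88 0.067 without inhibitor replicate 2. DESeq2 gave an adjusted p for 3 members only. Over the fits without 1 library the members' median ran from -0.28 to 0.15.

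Counts of all genes, higher and lower, were 188 and 59. They were 469 and 205 with the replicate block, 51 and 13 without the floor, 0 and 0 without limma's intensity trend (1423 genes at an unadjusted p under 0.05), 7 and 3 with edgeR, and 331 and 145 with DESeq2. With a pseudocount of 1, 36 were lower. Without 1 library, 0 to 616 were higher and 5 to 179 lower, the lowest counts without inhibitor replicate 1 and the highest without DMSO replicate 1; the lone sample of a group is then assumed to vary like the other group. Pathway genes, 1 higher and 1 lower, were 6 and 2 with the block, 2 and 2 with DESeq2, and 0 and 0 without the floor, without the trend and with edgeR, and 0 were lower with a pseudocount of 1. With the block Fos (adjusted p = 9.08e-12), Nfkbiz (0.0387), Il18r1 (0.00175) and Lrrc59 (0.00432) were among those that passed. Without 1 library, 0 to 10 were higher and 0 to 2 lower. The cause was not tested. The replicate numbers are shared between groups, but same-numbered libraries hardly deviated together (r = 0.073 over 13810 genes), so the numbers were not taken to pair the samples. With the median transcript length, 5 of 9 genes kept their place in the order.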
